A study of Mus musculus with 4 samples.

Results

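Matrix metalloproteinase genes were followed in mBMSCs after knockdown of ZBP1. The 10 genes described here are Mmp2, Mmp3, Mmp8, Mmp9, Mmp10, Mmp12, Mmp13, Mmp14, Mmp19 and Mmp23, out of 24346 gene rows in the expression table. The family was chosen by the measured difference between siZBP1 and siScr cells, as the one that holds Mmp3, whose rise was the largest of any gene outside the small RNA genes. The values of this contrast, and the counts of members past a threshold, are therefore given for these 10 genes as a description with no p-value. The table also held 13 other genes of the family, which are counted separately. The cells were mesenchymal stem and progenitor cells obtained from bone marrow of C57BL/6 mice (given as C57BL/6J in the methods) aged 3 months. All 4 samples were of cells transfected by lipofection, 2 with scrambled siRNA (siScr) and 2 with siRNA against ZBP1 (siZBP1), and no untransfected cells were analysed here. ZBP1 is a sensor of Z-form nucleic acids, and the study asked which genes depend on it in these cells. Which siRNA against ZBP1 was used, or whether several were, is not stated. The labels do not say whether the 2 samples of a group came from separate cultures or mice, so that p-values measure the spread between these samples only.

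Matrix metalloproteinases are zinc-dependent endopeptidases that are secreted or anchored at the cell surface and that cut collagens, proteoglycans and other matrix proteins, as well as growth factors and cytokines. Most are made as inactive proenzymes in which a cysteine of the propeptide occupies the catalytic zinc, an arrangement called the cysteine switch, and tissue inhibitors of metalloproteinases (TIMPs) block the active enzymes. In bone and marrow these enzymes are known for turnover of the collagenous matrix, and for several of them, the transcription factor AP-1 acts on the promoter.

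The AP-1 element is shown for the 4 members that carried it, because Mmp3 and Mmp10 share it with other genes beside them on chromosome 9. The sequences are from RefSeq promoter windows on GRCm38.p6, which reach from 250 bases before to 50 bases after the annotated start, and each is given 5′ to 3′ with the AP-1 element (TGAGTCA, or TGACTCA on the other strand) in capitals.
Mmp3: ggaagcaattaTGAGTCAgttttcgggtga
Mmp10: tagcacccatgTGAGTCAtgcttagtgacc
Mmp13: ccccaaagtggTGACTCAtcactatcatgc
Mmp12, second start: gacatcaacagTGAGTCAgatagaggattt
The stretches lie on the plus strand, at chr9:7445765-7445794 for Mmp3, chr9:7502268-7502297 for Mmp10, chr9:7272468-7272497 for Mmp13 and chr9:7347319-7347348 for Mmp12. In Mmp3 the element began 46 bases before the start, in Mmp10 63, in Mmp13 35 and in Mmp12 44. Of the 10 members 7 had a promoter window, with no window used for Mmp2, Mmp9 and Mmp19. Searched on both strands, the element was present in 5.20% of all 32851 windows, and these matches describe letters and not binding.

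The codons of the cysteine switch are shown because they were the same in Mmp3 and Mmp10 and differed in the other members. They were found in GENCODE M21 transcripts of 8 members by translating 3 reading frames and looking for a run of proline, arginine or lysine, cysteine, glycine, valine or asparagine or threonine, proline or alanine, and aspartate. Each stretch holds 21 bases, with the cysteine codon in capitals.
Mmp3: cccaggTGTggtgttcctgat
Mmp10: cccaggTGTggtgttcctgat
Mmp14: cctcgcTGTggtgttccggat
Mmp2: ccaagaTGTggcaacccagat
This run of residues was not found in the transcripts of Mmp19 and Mmp23. Across the coding sequences, Mmp3 and Mmp10 were 78.7% identical, and the next closest pair, Mmp8 and Mmp13, was 59.6% identical. Of the 50-base stretches of the Mmp10 transcript, 8.37% also occurred in Mmp3, so that the values of these 2 genes are uncertain to the extent that reads from there cannot be assigned to one of them.

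Levels are in FPKM, the number of fragments per kilobase of transcript and per unit of mapped reads, which allows genes of different length to be set side by side. The numbers of reads behind the values are not given. A rough estimate from the lowest values gave 14 and 19 M fragments in the siScr replicates and 10 and 18 M in the siZBP1 replicates, and the fragment numbers given below rest on it. Zbp1 itself was at 86.0 and 62.0 FPKM in siScr cells and at 11.5 and 11.6 FPKM in siZBP1 cells. All 12 mesenchymal markers were detected, with summed levels of 933 and 872 FPKM in siScr cells and 719 and 733 FPKM in siZBP1 cells. Itgb1 alone was at 380 and 416 FPKM in siScr cells and at 377 and 395 FPKM in siZBP1 cells. Of the 11 tested markers 10 were lower by value and 1, Nt5e, was higher, as given below. By limma at an adjusted p of 0.05, 5 fell and 1 rose, beside 14.8% and 13.5% of all tested genes. The largest fall among them was that of Cxcl12, from 68.4 and 54.6 FPKM in siScr cells to 8.06 and 7.71 FPKM in siZBP1 cells. Macrophage markers were detected as well, with 15 of 15 above 0. Their sum was 8289 and 9261 FPKM in siScr cells and 13595 and 12879 FPKM in siZBP1 cells, so that the cultures held abundant macrophage transcripts and more of them after knockdown. The largest part was Lyz2, at 2814 and 3647 FPKM in siScr cells and at 5871 and 5402 FPKM in siZBP1 cells. The markers rose unevenly, and Fcgr1 was at 65.9 and 59.8 FPKM in siScr cells and at 65.1 and 63.0 FPKM in siZBP1 cells. Osteoblast markers summed to 3477 and 2852 FPKM in siScr cells and to 1192 and 1251 FPKM in siZBP1 cells. Most of this sum was Col1a1, at 3066 and 2520 FPKM in siScr cells and at 1128 and 1191 FPKM in siZBP1 cells. All 6 osteoblast markers were lower by value. Of 9 neutrophil markers 5 were at 0 in all samples, among them Elane, Mpo and Ltf, but others were detected. Cxcr2 was at 1.33 and 0.996 FPKM in siScr cells and at 1.21 and 0.753 FPKM in siZBP1 cells. S100a8 was at 0.434 and 0.322 FPKM in siScr cells and at 0.597 and 4.52 FPKM in siZBP1 cells.

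Among the stromelysins, Mmp3 and Mmp10, the level was higher after knockdown. Stromelysins cut proteoglycans, fibronectin and basement membrane proteins and activate other proenzymes of the family. Mmp3 (gene 17392, chr9:7445822-7455975) was at 0.0828 and 1.00 FPKM in the siScr replicates and at 10.3 and 9.95 FPKM in the siZBP1 replicates. Both siZBP1 samples were thus far above both siScr samples, and the lower of them exceeded the higher siScr sample 9.95-fold. The group means were 0.541 ± 0.648 FPKM (SD, n = 2) and 10.1 ± 0.282 FPKM (SD, n = 2), a ratio of 18.7, and on the log2(FPKM + 1) scale the limma difference was 2.92 (standard error 0.31). The size of the ratio rests on siScr cells at the limit of detection, with about 2 fragments in replicate 1 and 34 in replicate 2, against 192 and 320 in the siZBP1 replicates. These siScr replicates were 12.1-fold apart, and leaving out siScr replicate 1 brought the ratio of the means to 10.1, leaving out siScr replicate 2 to 123. On the log2(FPKM + 1) scale only 158 of 11959 tested genes, or 1.32%, had siScr replicates farther apart. As RNA came from whole cultures, fewer cells of a type and less RNA per cell cannot be told apart for this or any later gene.

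Mmp10 (gene 17384, chr9:7502342-7510242) was low throughout. It was at 0.279 and 0.180 FPKM in siScr cells and at 1.10 and 0.764 FPKM in siZBP1 cells, and the groups did not overlap. The means were 0.229 ± 0.0705 and 0.933 ± 0.240 FPKM (SD, n = 2 each), a ratio of 4.07. About 7 and 6 fragments stood behind the siScr values and 20 and 23 behind the siZBP1 values. In siZBP1 cells Mmp3 was at 9.38 and 13.0 times the level of Mmp10, while in siScr cells the quotient was 0.296 and 5.57, so that both orders occurred among the siScr samples. The share of Mmp3 reads in the Mmp10 values was not tested.

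**Figure D1:**
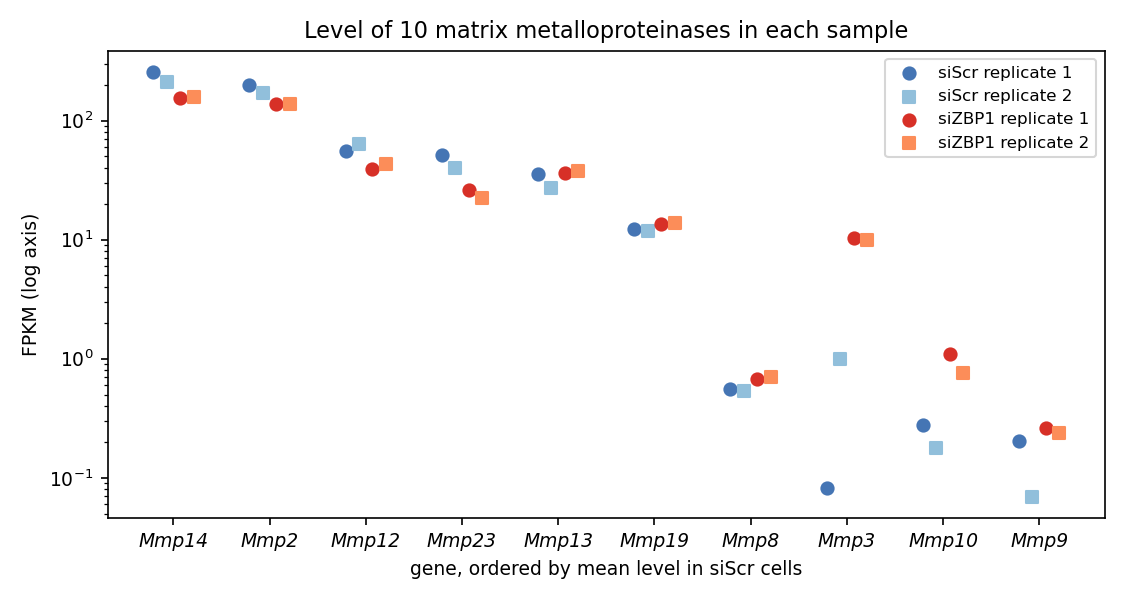
FPKM on a log axis of the 10 metalloproteinase genes in each of the 4 samples, with circles for replicate 1 and squares for replicate 2, siScr in blue and siZBP1 in red and orange, ordered by the siScr mean. Mmp3 lies at 0.0828 and 1.00 FPKM in siScr cells and near 10.1 FPKM in siZBP1 cells, while Mmp14 and Mmp2 lie highest in every sample and lower in siZBP1 cells.

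The most abundant members, Mmp14 and Mmp2, were lower after knockdown. Mmp14 is a membrane-anchored collagenase that, together with TIMP2, activates the proenzyme of Mmp2 at the cell surface. Mmp14 (gene 17387, chr14:54431598-54442456) was at 255.8 and 209.6 FPKM in siScr cells and at 155.3 and 158.4 FPKM in siZBP1 cells. The lower siScr sample was 1.32-fold above the higher siZBP1 sample. The means were 232.7 ± 32.7 and 156.9 ± 2.19 FPKM (SD, n = 2 each), with a ratio of 0.674 and a limma log2 difference of -0.56 (standard error 0.10). Mmp14 was at 0.547 and 0.456 times the level of Timp2 in siScr cells and at 0.585 and 0.597 times its level in siZBP1 cells, so that the quotient was higher and not lower after knockdown.

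Mmp2, or gelatinase A, cuts denatured collagen and the type IV collagen of basement membranes. It lies at chr8:92827290-92853421 (gene 17390) and was at 199.6 and 170.3 FPKM in siScr cells and at 137.7 and 136.6 FPKM in siZBP1 cells. The siZBP1 replicates were within 1.01-fold of each other and below both siScr replicates. The means were 184.9 ± 20.8 and 137.1 ± 0.840 FPKM (SD, n = 2 each), with a ratio of 0.742 and a limma log2 difference of -0.42 (standard error 0.08). Mmp9, or gelatinase B (gene 17395, chr2:164940326-164955850), is known from neutrophils and osteoclasts. It was close to the limit of detection, at 0.205 and 0.0695 FPKM in siScr cells and 0.260 and 0.239 FPKM in siZBP1 cells. The ratio of the means was 1.82, but between 4 and 14 fragments stood behind each value and the siScr replicates were 2.95-fold apart. The ratio was 3.59 when siScr replicate 1 was left out and 1.22 when siScr replicate 2 was.

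Mmp13 and Mmp8 are secreted collagenases, which cut the triple helix of fibrillar collagens, and their ratios of the means were 1.18 and 1.27. Mmp13, the main interstitial collagenase of rodents and a gene of hypertrophic chondrocytes and osteoblasts, lies at chr9:7272514-7283333 (gene 17386). Its level was 35.5 and 27.2 FPKM in siScr cells and 36.3 and 37.4 FPKM in siZBP1 cells. The higher siScr replicate was nearly at the level of siZBP1 cells, with 1.02-fold between them. The means were 31.4 ± 5.93 and 36.9 ± 0.766 FPKM (SD, n = 2 each), with a ratio of 1.18 and a limma log2 difference of 0.24 (standard error 0.13). Osteoblast markers, by contrast, fell by limma in 6 of 6 cases, beside 14.8% of all tested genes. Most of these calls were lost when either siZBP1 replicate was left out, as were most calls over all genes. The part of osteoblast content in the Mmp13 values was not tested. Mmp8 (gene 17394, chr9:7558429-7568486), the collagenase known from neutrophils, was at 0.553 and 0.535 FPKM in siScr cells and 0.682 and 0.701 FPKM in siZBP1 cells, a ratio of 1.27. Only about 19 and 24 fragments stood behind the siScr values and 17 and 30 behind the siZBP1 values, so that this small ratio is uncertain. The Mmp8 gene overlaps a long non-coding RNA, Gm31751, and no source used here states whether strand was counted.

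Mmp12, the elastase of macrophages, was lower after knockdown although the macrophage markers were higher. Mmp12 (gene 17381, chr9:7344397-7360461) was at 55.8 and 63.2 FPKM in siScr cells and at 39.2 and 43.3 FPKM in siZBP1 cells. Both siZBP1 samples lay below both siScr samples. The means were 59.5 ± 5.21 and 41.3 ± 2.86 FPKM (SD, n = 2 each), with a ratio of 0.693 and a limma log2 difference of -0.52 (standard error 0.08). Csf1r, the receptor for the macrophage growth factor CSF1, rose from 469 ± 2.0 to 571 ± 18.5 FPKM (SD, n = 2 each, limma log2 difference 0.28, adjusted p = 0.0147). Relative to Csf1r, Mmp12 was at 0.120 and 0.135 in siScr cells and at 0.0672 and 0.0776 in siZBP1 cells. Relative to Cd68, another macrophage marker, it was at 0.0784 and 0.0850 in siScr cells and at 0.0441 and 0.0509 in siZBP1 cells. Among all tested genes 13.5% rose and 14.8% fell by limma. Of 14 tested macrophage markers 9 rose and 0 fell by limma, with 10 higher and 0 lower at an unadjusted p under 0.05. Without siZBP1 replicate 1 or siZBP1 replicate 2, 0 of them rose by limma, with 9 higher at an unadjusted p under 0.05 in both cases. The part of macrophage content in the member values was not tested.

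Mmp19 and Mmp23 stand apart from the classical groups of the family. Mmp19 (gene 58223, chr10:128790910-128800827) acts on basement membrane proteins. It was at 12.2 and 11.7 FPKM in siScr cells and 13.5 and 13.7 FPKM in siZBP1 cells, a small difference with a ratio of 1.14 and a limma log2 difference of 0.17 (standard error 0.06). Its gene overlaps Tmem198b, which was at 13.4 and 14.3 FPKM in siScr cells and at 15.9 and 15.3 FPKM in siZBP1 cells. Mmp23 (gene 26561, chr4:155650655-155654539) is a membrane protein that lacks the usual hemopexin domain. Among the members it had the largest ratio downwards, with 51.0 and 40.3 FPKM in siScr cells and 25.9 and 22.4 FPKM in siZBP1 cells. The means were 45.6 ± 7.53 and 24.2 ± 2.48 FPKM (SD, n = 2 each), 1.89-fold lower, with a limma log2 difference of -0.88 (standard error 0.13). Its gene overlaps Mib2, which was at 7.33 and 7.27 FPKM in siScr cells and at 9.03 and 8.37 FPKM in siZBP1 cells.

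In siScr cells the order of levels was Mmp14, Mmp2, Mmp12, Mmp23, Mmp13, Mmp19, Mmp8, Mmp3, Mmp10 and Mmp9. Neighbours in this order did not overlap between replicates down to Mmp8, whereas Mmp8, Mmp3, Mmp10 and Mmp9 overlapped one another in turn. In siZBP1 cells Mmp13 stood above Mmp23, and Mmp3 stood above Mmp10, Mmp8 and Mmp9. Mmp14 and Mmp2 made up 74.5% and 72.5% of the summed FPKM of the members in the siScr replicates and 69.7% in both siZBP1 replicates. Mmp3 took 0.0135% and 0.191% of that sum in siScr cells and 2.46% and 2.35% in siZBP1 cells. The sum itself was 611 and 524 FPKM in siScr cells and 420.5 and 423 FPKM in siZBP1 cells, so that the total was lower in siZBP1 cells in spite of Mmp3.

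Of the 10 members 7 had the mean of at least 1 FPKM needed for limma, and Mmp8, Mmp9 and Mmp10 did not. Of the 7, 4 were past an adjusted p of 0.05 as lower (Mmp2, Mmp12, Mmp14 and Mmp23), where 14.8% of all tested genes were lower, and 1 was past it as higher (Mmp3), where 13.5% were higher. By the ratio of means, the criterion of the study, 1 member was over 1.5-fold lower (Mmp23), beside 13.8% of the 16281 genes with both means above 0. Over 1.5-fold higher were 3 members (Mmp3, Mmp9 and Mmp10), beside 10.7% of those genes. The siZBP1 samples lay below both siScr samples in 4 members, beside 29.3% of all genes with a value above 0, and above both in 6, beside 29% of them, so that the groups were separate in all 10 members and in 58.3% of those genes. Since this contrast chose the family, these counts are a description. Without siZBP1 replicate 1 or without siZBP1 replicate 2, 0 members passed the limma threshold in either direction, with 4 lower and 1 higher at an unadjusted p under 0.05 in both cases, and no limma difference of a member changed sign. Over all genes, 48 were then lower and 22 higher without siZBP1 replicate 1, and 113 and 32 without siZBP1 replicate 2. Without siScr replicate 1, 938 genes were lower and 713 higher, and Mmp13 also passed as higher. An exact two-sided permutation test on 2 against 2 samples can reach a p of 0.333 at best.

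**Figure D2:**
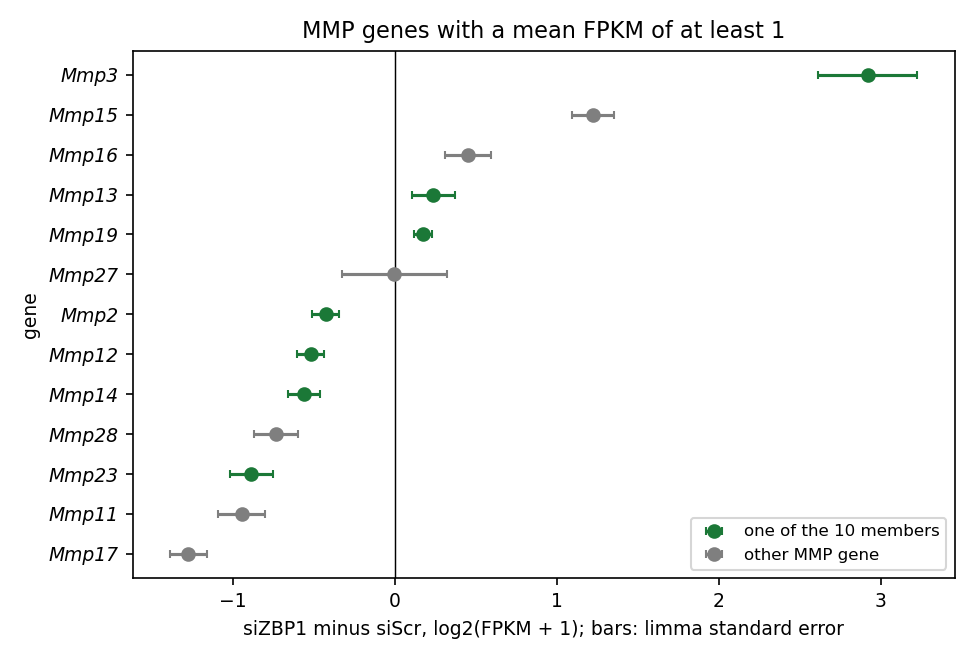
Difference between siZBP1 and siScr cells on the log2(FPKM + 1) scale with its limma standard error for the family members with a mean of at least 1 FPKM, the 7 described genes in green and 6 other genes of the family in grey. Mmp3 lies farthest to the right at 2.92 and Mmp17 farthest to the left at -1.27.

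Of the 13 other genes of the family, 6 were tested, of which 3 fell, 1 rose and 2 were not past the threshold. Of all tested genes 14.8% fell and 13.5% rose, and these shares apply to every list below. Mmp17, a membrane enzyme held by a lipid anchor, fell from 3.15 and 2.98 FPKM to 0.692 and 0.673 FPKM (limma log2 difference -1.27, standard error 0.11, adjusted p = 0.00506). Mmp11, or stromelysin-3, which is activated inside the cell by furin, fell from 7.62 and 5.69 FPKM to 3.04 and 2.85 FPKM (limma log2 difference -0.95, standard error 0.15, adjusted p = 0.0147). Mmp28, or epilysin, fell from 2.85 and 2.33 FPKM to 1.06 and 1.25 FPKM (limma adjusted p = 0.0219), and 1700020L24Rik, which overlaps it, was at 2.73 and 2.94 FPKM in siScr cells and at 1.20 and 1.21 FPKM in siZBP1 cells. Of the membrane-type enzymes that pass through the membrane, Mmp15 rose from 0.399 and 0.461 FPKM to 2.22 and 2.46 FPKM (limma log2 difference 1.22, standard error 0.13, adjusted p = 0.00671), the opposite direction to its relative Mmp14. Mmp16 was at 1.81 and 1.47 FPKM in siScr cells and at 2.32 and 2.91 FPKM in siZBP1 cells, with a limma log2 difference of 0.45 and an adjusted p of 0.0788. Mmp27 overlapped between the groups, with 1.79 and 1.23 FPKM in siScr cells and 0.851 and 2.36 FPKM in siZBP1 cells (limma adjusted p = 0.998). Mmp1b, Mmp7 and Mmp20 were listed at 0 in all samples, and Mmp1a, Mmp21, Mmp24 and Mmp25 did not exceed 0.113 FPKM.

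On chromosome 9, 10 genes of the family lie side by side within 427 kb, at chr9:7272514-7699585 on GRCm38. Their order is Mmp13, Mmp12, Mmp1b, Mmp3, Mmp1a, Mmp10, Mmp8, Mmp27, Mmp20 and Mmp7, and 5 of them are among the genes described here. Neighbours went different ways, with ratios of the means of 0.693 in Mmp12, 18.7 in Mmp3, 4.07 in Mmp10, 1.18 in Mmp13 and 1.27 in Mmp8, and 3 genes at 0 throughout. Of the flanking genes, Tmem123 fell from 67.0 and 67.6 FPKM to 44.7 FPKM in both siZBP1 samples (limma log2 difference -0.58, adjusted p = 0.00331). Dcun1d5 had a limma log2 difference of -0.18 (adjusted p = 0.0470), Dync2h1 of 0.22 (adjusted p = 0.294) and Birc2 of 0.0049 (adjusted p = 0.966). The AP-1 element shown above for Mmp3 was present in the windows of 7 of the 10 cluster genes, all 7 of which also held TATAAA, and in 0 of 8 family genes elsewhere that had a window. Of the 7, 4 had a mean under 1 FPKM, among them Mmp10, and 3 did not. TATAAA, searched on the given strand, occurred in 8.32% of all windows. Of the 7 members with a window, 5 held AGGAAG, the PEA3 element of ETS factors, beside 35.4% of all windows. ACCACA, the RUNX element, was present in 3, beside 16.8%. The TCF/LEF element of Wnt signalling, CTTTG followed by AA, AT, TA or TT, was also present in 3, beside 16.9%. These elements were searched on both strands. Mmp12 and Mmp23 had 2 windows each, whereas the shares are per window.

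**Figure D3:**
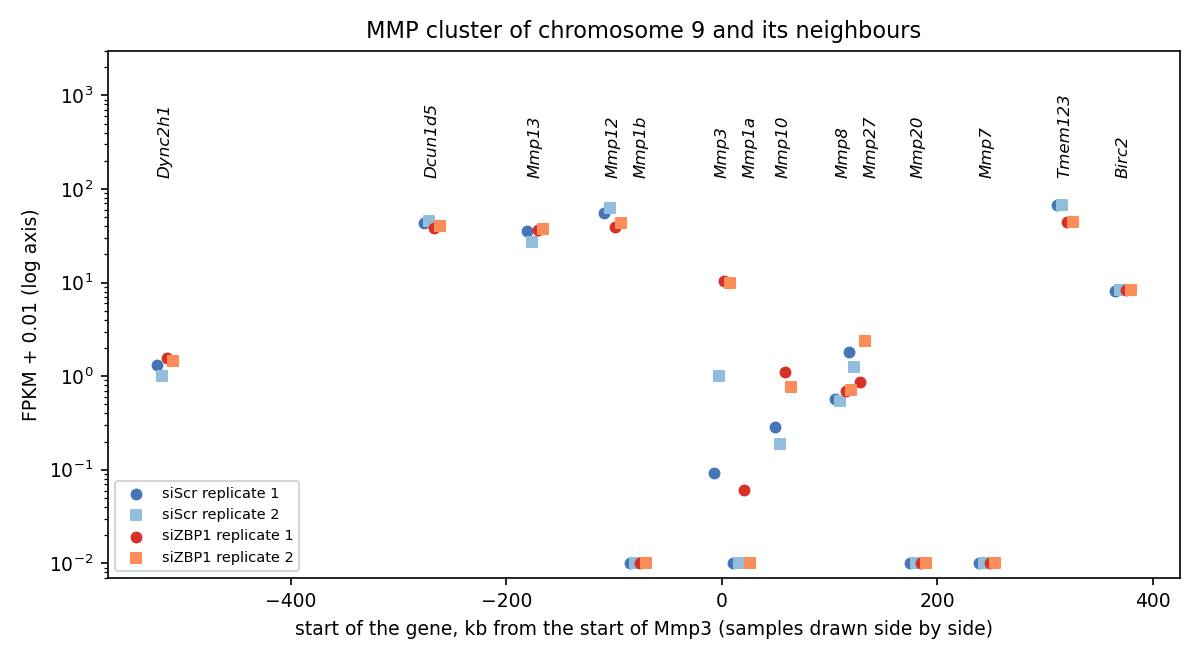
FPKM plus 0.01 on a log axis for the family genes of chromosome 9 and the 2 nearest genes on each side, by the distance of the start from that of Mmp3 in kb, with the 4 samples side by side and values of 0 drawn at 0.01. Mmp3 shows the widest gap between siScr and siZBP1 samples, while Mmp1b, Mmp20 and Mmp7 lie at the bottom in all samples.

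Most inhibitors of the family with a measurable level fell. Of 4 tested inhibitors 3 fell and 0 rose by limma, with 3 lower and 0 higher also at an unadjusted p under 0.05, and with a median log2 difference of -0.90 beside 0.0045 over all tested genes. Timp3, a TIMP that binds to the matrix, fell from 902 and 732 FPKM to 128 and 140.1 FPKM (limma log2 difference -2.59, standard error 0.11, adjusted p = 0.00221). Timp2 fell by 0.80 on the log2 scale by limma (standard error 0.04, adjusted p = 0.00231), and Reck, a membrane-anchored inhibitor, by 1.00 (standard error 0.13, adjusted p = 0.0107). Timp1 was at 362 and 386 FPKM in siScr cells and at 350.4 and 357 FPKM in siZBP1 cells, with a limma log2 difference of -0.08 (adjusted p = 0.292). The summed FPKM of the 10 members was 0.353 and 0.332 of the summed FPKM of Timp1, Timp2 and Timp3 in siScr cells and 0.565 and 0.555 of it in siZBP1 cells. This difference rested on Timp3, since against the sum of Timp1 and Timp2 alone the quotient was 0.737 and 0.620 in siScr cells and 0.683 and 0.680 in siZBP1 cells, where the groups overlapped. Without either siZBP1 replicate, 1 of the 4 inhibitors passed the limma threshold. These are transcript levels, and neither protein nor activity was measured.

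**Figure D4:**
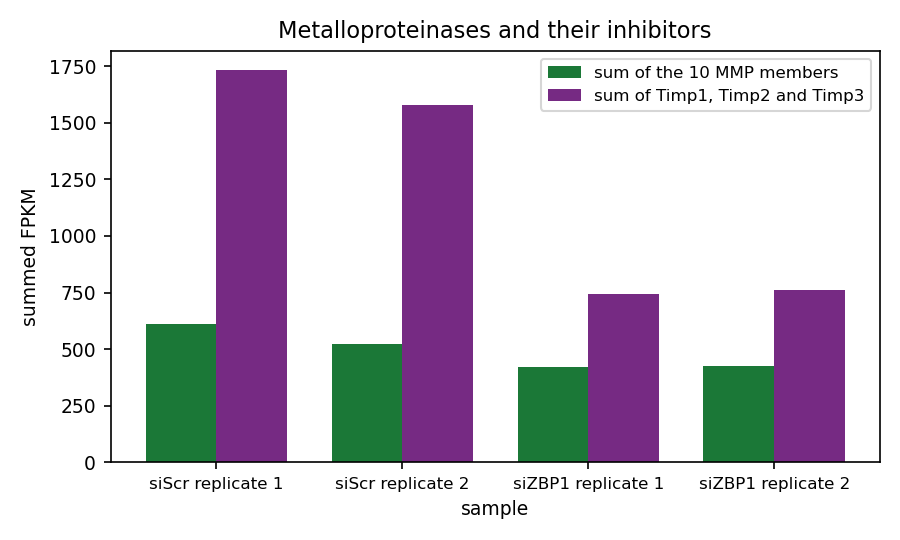
Summed FPKM of the 10 metalloproteinase genes (green) and of Timp1, Timp2 and Timp3 (purple) in each of the 4 samples. The inhibitor sum goes from 1731 and 1578 FPKM in siScr cells to 744 and 763 FPKM in siZBP1 cells, and the enzyme sum from 611 and 524 FPKM to 420.5 and 423 FPKM.

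Genes that act in activating the proenzymes went both ways, with 3 of 9 tested lower and 3 higher by limma (median log2 difference -0.11). These are 33.3% each way, beside 14.8% lower and 13.5% higher among all tested genes. Plasmin, made by the plasminogen activators, activates Mmp3 and other proenzymes, and furin-like convertases activate the membrane types. Plg, the gene of plasminogen, was at 0 in all samples. Pcsk6, such a convertase, fell from 4.89 and 5.35 FPKM to 0.997 and 1.20 FPKM (limma log2 difference -1.54, adjusted p = 0.00373). Furin itself was more abundant and rose slightly, from 49.1 and 47.5 FPKM to 53.8 and 55.7 FPKM (limma log2 difference 0.18, adjusted p = 0.0453). Serpine2, an inhibitor of serine proteases, rose from 90.6 and 79.7 FPKM to 185 and 181 FPKM (limma log2 difference 1.10, adjusted p = 0.00323). The tissue-type activator Plat rose (limma log2 difference 0.89, adjusted p = 0.00324), and Plau, the urokinase-type activator, had a limma log2 difference of -0.02 (adjusted p = 0.918).

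Of 11 tested cytokines, growth factors and receptors known to induce these enzymes, 2 fell and 2 rose by limma (median log2 difference 0.12). These are 18.2% each way, near the 14.8% lower and 13.5% higher among all tested genes. Il1b, the cytokine interleukin-1 beta and a classical inducer of Mmp3, rose from 0.714 and 1.02 FPKM to 3.10 and 5.77 FPKM (limma log2 difference 1.5, standard error 0.27, adjusted p = 0.0210). About 14 and 26 fragments stood behind the siScr values, and the difference was 1.14 to 1.86 with a sample left out. Il1r1, a receptor for it, was at 1.58 and 1.30 FPKM in siScr cells and at 0.905 and 1.27 FPKM in siZBP1 cells (limma adjusted p = 0.324). Osmr, the receptor for oncostatin M, fell (limma log2 difference -0.55, adjusted p = 0.0179). Egfr, the receptor for epidermal growth factor, also passed as lower (limma log2 difference -0.39, adjusted p = 0.0453), but its call was lost in 7 of 10 other settings with all samples, over which the limma adjusted p was 0.0263 to 0.0802. Of 15 tested transcription factors that act on promoters of the family, 3 fell and 4 rose (median log2 difference 0.07). These are 20% and 26.7%, beside 14.8% lower and 13.5% higher among all tested genes. Runx2, the osteoblast factor that acts on Mmp13, fell from 13.9 and 11.4 FPKM to 6.91 and 6.22 FPKM (limma log2 difference -0.85, adjusted p = 0.0110). Etv4, an ETS factor, fell by 0.69 on the log2 scale by limma (adjusted p = 0.0439), and Fosl1, a subunit of AP-1, by 0.62 (adjusted p = 0.0375). The call of Etv4 was lost in 4 of 9 other settings with all samples, with a limma adjusted p of 0.0197 to 0.0672. Another AP-1 subunit, Fosl2, rose (limma log2 difference 0.37, adjusted p = 0.0143), and the limma log2 differences of Fos, Jun and Junb were 0.16, 0.07 and 0.02, with adjusted p of 0.584, 0.457 and 0.894. Cebpb, Nfkb1 and Stat3 rose as well, with limma log2 differences of 0.38, 0.29 and 0.24 (adjusted p = 0.0250, 0.0207 and 0.0310).

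Of 17 tested matrix substrates 9 fell and 2 rose by limma, with a median log2 difference of -0.28. These are 52.9% and 11.8%, beside 14.8% lower and 13.5% higher among all tested genes. Nid1, a linker of basement membranes, fell from 28.2 and 27.4 FPKM to 5.89 and 6.28 FPKM (limma log2 difference -2.02, standard error 0.06, adjusted p = 0.00150). Col2a1, the collagen of cartilage, fell from 5.41 and 2.50 FPKM to 0.0749 and 0.0827 FPKM (limma log2 difference -2.13, adjusted p = 0.0131), and Lum, a proteoglycan of collagen fibrils, from 4.47 and 2.07 FPKM to 0.170 and 0.0719 FPKM (limma log2 difference -1.87, adjusted p = 0.0167). The 2 substrates that rose were Fn1 and Spp1, fibronectin and osteopontin, with limma log2 differences of 0.54 (adjusted p = 0.00530) and 1.19 (adjusted p = 0.0356). Of 7 tested genes that hold the enzymes at the cell surface or clear them and their fragments, 4 fell and 2 rose (median log2 difference -0.25). Mrc2, a receptor that takes up collagen fragments, fell (limma log2 difference -1.15, adjusted p = 0.00219), as did the proteoglycan Sdc1 (limma log2 difference -0.86, adjusted p = 0.00338). The integrin chain Itgb3 rose from 5.41 and 8.44 FPKM to 12.9 FPKM in both siZBP1 samples (limma log2 difference 0.84, adjusted p = 0.0380).

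Among all tested genes 14.8% fell and 13.5% rose. Over the 7 lists together, 27 of 69 tested genes fell, 14 rose and 28 were not past the threshold. Without siZBP1 replicate 1 or siZBP1 replicate 2, 5 were past the limma threshold as lower and 0 as higher, with 25 or 27 lower and 13 higher at an unadjusted p under 0.05, and without siScr replicate 1 or siScr replicate 2, 9 were higher. For 22 of the 24 list genes that the naming rule selects and for Zbp1, which together make up the 23 past the threshold, 8 of 46 limma values stayed past it when a siZBP1 replicate was left out, and 35 of 44 when a siScr replicate was, with 0 changes of sign.

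**Figure D5:**
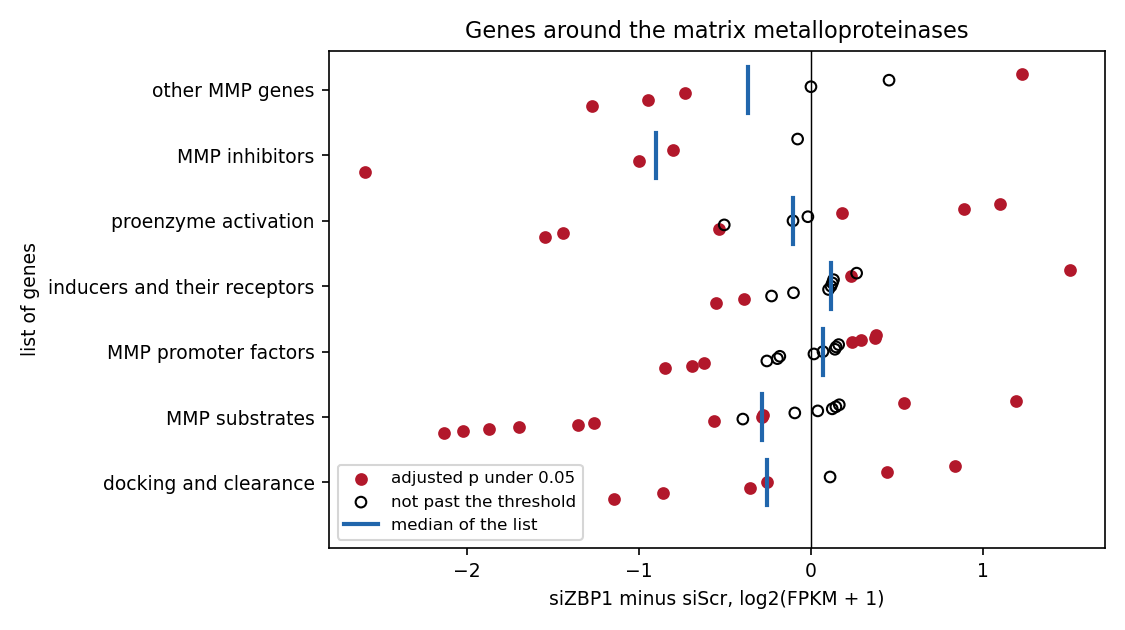
Difference between siZBP1 and siScr cells on the log2(FPKM + 1) scale for the tested genes of the 7 lists, filled in red where the limma adjusted p was under 0.05 and open otherwise, with a blue bar at the median of each list. The inhibitors lie lowest with a median of -0.90, and inducers and promoter factors lie around 0 with medians of 0.12 and 0.07.

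The pattern most like that of Mmp3 was sought among genes with a mean of at least 10 FPKM, by the distance between centred log2(FPKM + 1) values over the 4 samples. The nearest was Nt5e, the ecto-enzyme CD73, at a distance of 0.762, with 2.73 and 5.48 FPKM in siScr cells and 20.8 and 21.3 FPKM in siZBP1 cells. Fxyd2, a regulator of the sodium pump, followed at 0.822, then Nxpe5 at 0.927, Nrep at 1.01 and Gas7 at 1.30. Outside the small RNA genes, the rises next to that of Mmp3 by limma were those of Nrep (log2 difference 2.28), Fxyd2 (2.18) and Nt5e (2.16). These genes are in both lists, because Mmp3 was chosen by its rise and the distance is not scaled for the size of a difference. The 2 lists are therefore not separate findings.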

How the data were processed

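RNA-seq of 4 samples, 2 siScr and 2 siZBP1, was used. The deposited table gives FPKM per gene and sample, which the authors made from TruSeq libraries mapped with Tophat to mm10. The methods name HTSeq for extraction of FPKM and the processing notes name Cufflinks, and the annotation is not given in the sources used here. The 2 columns of group means were not used.

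The test was limma 3.58.1 (R 4.3.3) with a variance trend on log2(FPKM + 1), two-sided, for 11959 genes with a mean of at least 1 FPKM, with Benjamini-Hochberg adjustment over all of them at 0.05. A fold on this scale understates changes of low genes. It was tested on simulated data first. Ratios of group means were computed for genes with both means above 0. Depth was estimated from the lowest common value of FPKM times length, and precision is limited by 2 samples per group.

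Members and lists were chosen with earlier results of these data known. Genes named are the members, Zbp1, other family genes with a mean of at least 1 FPKM, the 3 largest limma differences of each list, the 5 genes nearest to Mmp3 and the genes flanking the cluster. Timp1, Plat, Plau, Furin, Plg, Il1r1, Fosl2, Fos, Jun, Junb, Fn1, Spp1, Itgb1, Col1a1, Lyz2, Fcgr1, Csf1r, Cd68 and the neutrophil genes were named after their values were seen. So were Cebpb, Nfkb1, Stat3 and Cxcl12. One gene that the rule selects is not reported here. Gene positions were from mouse GRCm38, promoters from RefSeq and transcripts from GENCODE M21. Python 3.11.15 (numpy 2.4.6, pandas 2.3.3, scipy 1.17.1, matplotlib 3.10.9, biopython 1.88) was used.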

Additional observations from a re-analysis of the deposited data

How the results depend on the processing

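Leaving out each sample in turn gave 48 to 1467 genes lower (1766 with all samples) and 22 to 1248 higher (1618), 0 to 4 members lower (4) and 0 to 2 higher (1), and 5 to 27 list genes lower (27) and 0 to 9 higher (14). A group with 1 sample left is assumed to vary like the other. With a mean of at least 0.1 FPKM, or with no filter, 2 members were higher, as Mmp10 was added. At a mean of at least 5 FPKM 17 list genes were lower, and with no variance trend 9 list genes were higher and 3 members lower, Mmp2 no longer among them. By the ratio of means, 0 members were over 2-fold lower, 1 to 2 were over 1.5-fold lower and 2 to 3 over 1.5-fold higher with a sample left out, and 1 member with a mean of at least 1 FPKM was over 1.5-fold higher. Mmp3 had limma log2 differences of 2.92 to 4.51 over the settings with all samples, the highest at a pseudocount of 0.1. None of 98 member values turned its sign, and 205 of 219 values of the list genes selected by the naming rule and Zbp1 stayed past the threshold with all samples. The calls of Egfr, Etv4, Itgb3 and Fosl1 were lost in 7 of 10, 4 of 9, 2 of 10 and 1 of 9 such settings, and Mmp16 passed in 1 of 9. Quantile and median scaling moved the median of all genes by 0.039 and 0.031 on the log2 scale. With a replicate block, 1654 genes were lower and 1465 higher, with 4 and 1 members and 27 and 13 list genes. The replicate numbers share only a number, as same-numbered samples did not deviate together (r = -0.063 across 11959 genes, which are not independent).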

Other observations

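The siScr replicates differed from each other more than the siZBP1 replicates did. In 8 of 10 members siScr replicate 1 was above siScr replicate 2, with Mmp3 and Mmp12 as the exceptions, and the siScr replicates were over 1.5-fold apart in Mmp3, Mmp9 and Mmp10, whereas the siZBP1 replicates were within 1.5-fold in all 10. Over the tested genes, 590 had siScr replicates over 1.5-fold apart and 396 had siZBP1 replicates that far apart. Of 3384 genes past the limma threshold, 2240 had siScr replicate 2 nearer to the siZBP1 mean than siScr replicate 1, and so had 4 of the 5 members past that threshold, all but Mmp12. Mmp3 was among these 4, with 1.00 FPKM in siScr replicate 2 and 0.0828 FPKM in replicate 1. What sets siScr replicate 2 apart was not tested.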
